A study of Mus musculus with 18 samples.

Results

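The transcription factor genes *Cebpa*, *Cebpb*, *Cebpd*, *Cebpg*, *Irf4*, *Irf8* and *Mef2c* were followed through the first stages of T cell development in adult and fetal thymus. All probe sets annotated with 1 of these 7 symbols were taken, which gave 17 of the 22626 probe sets on the array and 7 of the 12393 genes with a probe set of their own. *Mef2c* had 5 probe sets, *Cebpg* 3, *Cebpb*, *Cebpd*, *Irf4* and *Irf8* 2 each and *Cebpa* 1. Probe sets of 1 gene read the same RNA and are no replicates of each other.

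Thymocytes of C57BL/6 mice were sorted after removal of cells bearing lineage markers, among them CD3ε, CD8α, NK1.1, CD11b and TER119. Early thymic progenitors (ETP) were CD44+CD25- and c-Kit+, DN2 cells CD44+CD25+ and DN3 cells CD44-CD25+. These populations came from adult females aged 4 to 6 weeks and from fetal thymi, which the labels place at E14.5 and the methods at a later embryonic day. Each of the 6 groups had 3 arrays, 18 in all, and the labels give 80000 cells for each. The methods pooled several sorts for every array, more for adult than for fetal cells, and call the arrays technical replicates where the labels call them biological. Spread between arrays, on which all p-values rest, may thus be technical.

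The values are log2 signals that were centred on the median of each probe set over the 18 arrays, so that 0 marks that median and not absence of the transcript. A sorted population is a bulk sample, in which fewer cells with a transcript and less of it per cell cannot be told apart. Differences are between group means on the log2 scale with the standard error (SE) from limma. A probe set was called lower or higher where the Benjamini-Hochberg adjusted p over all 22626 probe sets was under 0.05 and the means differed at least 1.8-fold.

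C/EBP proteins are leucine zipper factors that bind DNA as pairs. C/EBPα drives progenitors towards granulocytes and macrophages, C/EBPβ and C/EBPδ act in emergency granulopoiesis and in inflammation, and C/EBPγ lacks an activation domain and pairs with its relatives. IRF8 and IRF4 bind poorly alone and act with partners such as PU.1 and BATF. IRF8 is needed for monocytes and several dendritic cell types, whereas IRF4 is needed in other dendritic cells and in activated lymphocytes. MEF2C is a MADS box factor that favours lymphoid over myeloid fates in multipotent progenitors, and class IIa histone deacetylases hold it in check. Early thymic progenitors can still give rise to myeloid and dendritic cells, and this potential is lost as T cell commitment proceeds.

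Promoter sequences of the mouse assembly GRCm38.p6 in RefSeq were matched by symbol for 6 of the 7 genes, all but *Cebpd*, with 9 start sites. The 250 bases before the start (the first of the listed starts) are shown for *Irf8*, *Mef2c* and *Cebpb*, the 3 genes with probe sets called between stages. Capitals mark matches to the 8 motifs searched on both strands.
Irf8, chr8:120736108-120736357, plus strand: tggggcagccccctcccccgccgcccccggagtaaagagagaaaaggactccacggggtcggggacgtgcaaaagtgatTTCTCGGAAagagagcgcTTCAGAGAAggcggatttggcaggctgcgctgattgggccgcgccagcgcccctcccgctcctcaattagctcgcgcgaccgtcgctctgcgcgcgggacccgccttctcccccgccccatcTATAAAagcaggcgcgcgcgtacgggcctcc
Mef2c, chr13:83503784-83504033, plus strand: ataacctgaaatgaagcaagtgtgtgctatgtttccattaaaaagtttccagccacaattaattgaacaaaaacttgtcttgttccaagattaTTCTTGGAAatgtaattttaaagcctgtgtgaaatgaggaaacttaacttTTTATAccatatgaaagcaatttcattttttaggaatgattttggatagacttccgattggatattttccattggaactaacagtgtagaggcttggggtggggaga
Cebpb, chr2:167688665-167688914, plus strand: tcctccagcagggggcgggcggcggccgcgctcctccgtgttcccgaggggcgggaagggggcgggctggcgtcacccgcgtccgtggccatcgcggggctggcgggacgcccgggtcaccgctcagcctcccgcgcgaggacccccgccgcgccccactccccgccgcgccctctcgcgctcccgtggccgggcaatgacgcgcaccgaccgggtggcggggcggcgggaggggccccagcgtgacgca

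The *Irf8* promoter held the STAT motif TTCNNNGAA at 2 places, as TTCTCGGAA ending 163 bases before the start and as TTCAGAGAA ending 145 bases before it, together with a TATA box (TATAAA) ending 26 bases before the start. The *Mef2c* promoter held the STAT motif once, as TTCTTGGAA, and a TATA box on the other strand. The STAT motif was found in 7.02% and the TATA box in 12.4% of the 32851 promoters of the same length. No motif was found in these bases of *Cebpb*, which were 81.6% G and C against 33.6% in *Mef2c* and a median of 52.4% over all promoters. The other motifs searched were those of C/EBP (TTGCNNAA, in 9.56% of all promoters), PU.1 (GAGGAAGT, 2.44%), IRF (GAAANNGAA, 7.13%), paired ETS and IRF factors (GGAANNGAA, 6.99%), CSL of the Notch pathway (TGGGAA, 21.6%) and the cyclic AMP response element (TGACGTCA, 1.55%). Of these only CSL matched a member, at the second start of *Irf8*. The matches did not overlap. *Cebpa* and *Irf4* had a TATA box as their only match, and *Cebpg* had none.

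The sorting markers followed the labels except in the third adult DN3 array. *Cd44* stood at -7.97 and -7.84 log2 in the first and second adult DN3 arrays but at -0.86 log2 in the third, within the range of the adult DN2 arrays (-0.97 to 0.44 log2). *Kit* stood there at -0.00 against -2.58 and -2.09 log2, and *Cd34*, a progenitor marker, at -0.90 against -7.19 and -7.58 log2. *Il2ra*, which encodes CD25, was low in the ETP arrays (-5.98 to -2.85 log2) and stood at -0.17 to 1.41 log2 in all others. In the second and the third adult DN3 array *Xist*, the RNA that coats the silenced X chromosome, was at -11.28 and -11.34 log2, against -1.45 to 1.59 log2 in all others, although the adult cells are labelled female. For the members, results that rest on adult DN3 are also given without the third array and without both arrays low in *Xist*, which leaves 1 adult DN3 array that is assumed to vary like the other groups.

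The 17 probe sets fell into those that moved with stage or age and those that stayed near their median. By limma's moderated F test 9 of the 17 were regulated over the 6 groups, against 16.8% of all probe sets, namely all 5 of *Mef2c*, both of *Irf8* and 1 each of *Cebpb* and *Cebpg*. No probe set was called higher in any step from ETP to DN3 or in fetal cells.

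**Figure D1:**
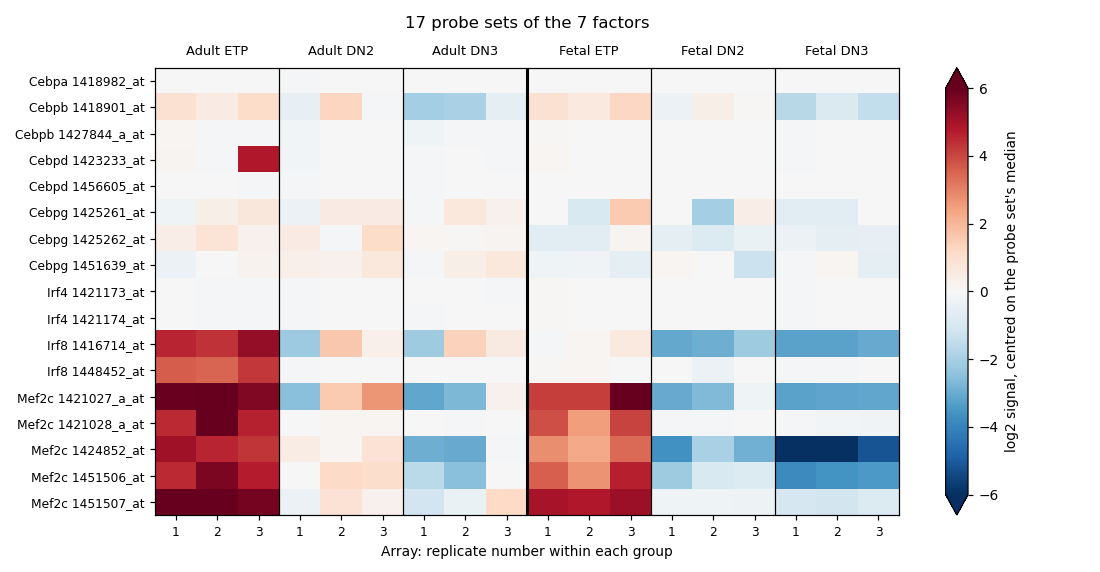
Log2 signal of the 17 probe sets (rows) in the 18 arrays (columns, by replicate number within each group), each probe set centred on its median over the arrays; colours saturate at 6 and -6 log2. The 5 *Mef2c* probe sets are high in ETP of both ages and *Irf8* in adult ETP, *Cebpa* and *Irf4* stay near 0, and *Cebpd* 1423233_at is high in a single array.

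*Mef2c* fell steeply at both ages, from ETP to DN2. On probe set 1451507_at the adult ETP arrays stood at 6.47, 6.06 and 5.72 log2 and the adult DN2 arrays at -0.34, 0.87 and 0.24 log2. The fetal ETP arrays stood at 4.96, 4.81 and 5.12 log2 and the fetal DN2 arrays at -0.26, -0.24 and -0.30 log2. At neither age did ETP and DN2 overlap, and every fetal ETP array lay below every adult one. DN2 differed from ETP by -5.83 ± 0.45 log2 (SE, adjusted p = 2.89e-06) in the adult thymus. In the fetal thymus the difference was -5.23 ± 0.45 log2 (adjusted p = 2.94e-05). The adult DN3 arrays stood at -1.13, -0.38 and 1.17 log2 and the fetal DN3 arrays at -1.03, -1.10 and -0.84 log2. The third adult DN3 array was thus the highest outside ETP.

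The other 4 *Mef2c* probe sets were called lower in DN2 too. Their adult differences were -4.15 to -5.54 log2 and their fetal ones -3.54 to -6.73 log2. All 5 were lower in DN3 than in ETP, with adult differences of -5.18 to -7.98 log2 and fetal ones of -3.65 to -8.56 log2. The fall had for the most part occurred by DN2, at which 62.3% to 98.1% of the adult and 66.0% to 97.0% of the fetal difference between ETP and DN3 was reached. The probe sets moved together over the 18 arrays, with r between 0.841 and 0.980 among arrays that share stage and age. Adult DN3 differed from adult ETP by -5.20 to -9.03 log2 without the third adult DN3 array and by -5.17 to -9.24 log2 with only the first, all called. On 1421027_a_at the fetal call in DN2 was lost in 3 of the 18 fits without 1 array. Most of the fetal *Mef2c* calls in DN2 were lost in a fit of only the arrays compared, which has fewer arrays.

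The step from DN2 to DN3 differed between the probe sets. On 1424852_at the adult DN2 arrays stood at 0.44, 0.12 and 0.88 log2 and the adult DN3 arrays at -2.94, -3.03 and -0.12 log2. The fetal DN2 arrays stood at -3.64, -1.96 and -2.87 log2 and the fetal DN3 arrays at -6.05, -5.98 and -5.17 log2. Neither age overlapped between the stages, and all fetal arrays lay below all adult arrays of the same stage. The fall was called in fetal cells (-2.91 ± 0.67 log2, adjusted p = 0.0327, a call lost in 6 of the 18 fits without 1 array) and not in adult cells (-2.51 ± 0.67 log2, adjusted p = 0.0976). Without the third adult DN3 array the adult fall was -3.47 ± 0.47 log2 (adjusted p = 0.00114), and with only the first adult DN3 array it was -3.42 ± 0.62 log2 (adjusted p = 0.00636). The difference between the ages in this step was called for no member, and for 0.548% of all probe sets.

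On 1451506_at a further fall was not called over all arrays and probe sets. It stood at -0.01, 1.15 and 1.04 log2 in adult DN2 and at -1.61, -2.51 and 0.01 log2 in adult DN3. The fall was -2.10 ± 0.64 log2 (adjusted p = 0.167), and without the third adult DN3 array -2.79 ± 0.60 log2 (adjusted p = 0.0285). With only the first adult DN3 array it was -2.34 ± 0.76 log2 (adjusted p = 0.155). In fetal cells it went from -2.15, -0.90 and -0.81 log2 to -3.81, -3.59 and -3.44 log2 (-2.32 ± 0.64 log2, adjusted p = 0.0893, and 0.0360 without the third adult DN3 array, since the fit shares its spread). On 1421028_a_at both stages stood within -0.23 to 0.14 log2 at both ages, and no further fall was called there.

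*Mef2c* was lower in fetal than in adult ETP on all 5 probe sets, but only 1421028_a_at was called. Its adult ETP arrays stood at 4.46, 6.37 and 4.62 log2 and its fetal ETP arrays at 3.89, 2.50 and 4.05 log2, without overlap. The difference was -1.67 ± 0.44 log2 (adjusted p = 0.0269), and it lost the call when the second adult ETP or the second fetal ETP array was left out. The others differed by -1.12 to -1.81 log2, and 1424852_at and 1451507_at were called without the third adult DN3 array (adjusted p = 0.0168 and 0.0233). In DN2 and DN3 the probe set 1424852_at was lower in fetal cells, by -3.30 ± 0.67 log2 (adjusted p = 0.0127) and -3.70 ± 0.67 log2 (adjusted p = 0.00578). Without the third adult DN3 array the DN3 difference was -2.75 ± 0.47 log2 (adjusted p = 0.00469), and with only the first adult DN3 array -2.79 ± 0.62 log2 (adjusted p = 0.0214). On 1451506_at these differences were -2.01 ± 0.64 log2 (adjusted p = 0.117) and -2.24 ± 0.64 log2 (adjusted p = 0.103), and the DN3 difference was called without the second adult DN3 array (-2.81 log2, adjusted p = 0.0485) and when only probe sets that span at least 1 log2 were tested. It was -1.55 ± 0.60 log2 without the third adult DN3 array (adjusted p = 0.309) and was not called. On 1421027_a_at the DN2 difference was -2.56 log2 and was called without the first adult DN2 array (-4.10 ± 1.03 log2, adjusted p = 0.0453). All 5 probe sets were lower in fetal cells in DN2 and DN3, by -0.13 to -3.30 and by -0.15 to -3.70 log2, so that they differed in size and call. With only the first adult DN3 array 1451507_at stood higher in fetal DN3 (0.14 ± 0.37 log2, not called).

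**Figure D2:**
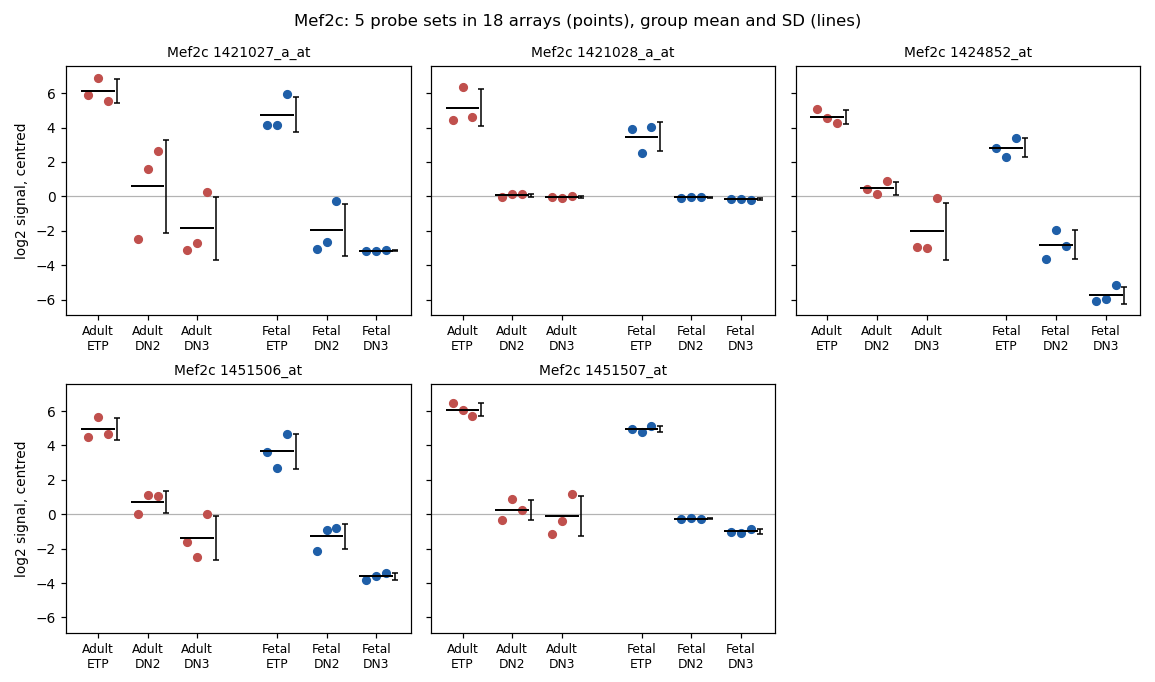
Log2 signal of the 5 *Mef2c* probe sets, centred on the median over 18 arrays, by group; points are arrays in the order of their replicate numbers (red adult, blue fetal), horizontal lines are group means and bars the SD of 3 arrays. All ETP arrays lie above all DN2 and DN3 arrays, and the third adult DN3 array lies above the other adult DN3 arrays.

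*Irf8* was high in adult ETP and in no other group on probe set 1448452_at. The adult ETP arrays stood at 3.66, 3.51 and 4.22 log2. The other 15 arrays stood between -0.36 and 0.10 log2, the fetal ETP arrays at 0.05, 0.10 and 0.03 log2 among them. Fetal ETP thus lay far below adult ETP. Its arrays stood just above the later stages, whose highest array stood at 0.01 log2. The medians of these fetal ETP arrays over all probe sets were 0.05, 0.01 and 0.03 log2, so a gap this small is not read as a difference in *Irf8*. The fetal minus adult difference in ETP was -3.74 ± 0.14 log2 (adjusted p = 2.46e-09), and the adult fall from ETP to DN2 was -3.82 ± 0.14 log2 (adjusted p = 1.85e-09). From fetal ETP to fetal DN3 the difference was -0.11 log2, within ± 0.31 log2 (95% interval), and was not called.

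On 1 of the 2 *Irf8* probe sets a change of the age difference with stage was called. On 1448452_at the fetal minus adult difference moved by 3.65 ± 0.20 log2 from ETP to DN2 (adjusted p = 3.29e-07) and by 3.71 ± 0.20 log2 from ETP to DN3 (adjusted p = 1.47e-07). On 1416714_at these changes were 1.90 ± 1.26 log2 (adjusted p = 0.838) and 1.44 ± 1.26 log2 (adjusted p = 0.585). The mean of both probe sets changed by 2.77 ± 0.66 log2 to DN2 (adjusted p = 0.0745) and by 2.57 ± 0.66 log2 to DN3 (adjusted p = 0.0477). Those of 1448452_at were the only calls among the 17 probe sets, 1 in each test, where 0.796% and 2.49% of all probe sets were called. In DN2 and DN3 the ages differed on 1448452_at by -0.09 and -0.02 log2, each within ± 0.31 log2 (95% interval). This probe set was flat outside adult ETP, and centred values cannot tell whether its signal could fall further there. A fetal fall like that on 1416714_at, -3.36 ± 0.89 log2 from ETP to DN3, might thus not show on it.

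The second *Irf8* probe set, 1416714_at, gave a graded pattern. Adult ETP stood at 4.55, 4.32 and 5.30 log2 and fetal ETP at -0.11, 0.11 and 0.59 log2. Adult DN2 stood at -2.17, 1.61 and 0.31 log2 and adult DN3 at -2.12, 1.38 and 0.52 log2, ranges that hold all the fetal ETP arrays. Fetal DN2 stood at -3.09, -2.93 and -2.12 log2 and fetal DN3 at -3.23, -3.23 and -3.04 log2. Adult ETP was above all other groups, and fetal DN3 lay below all adult arrays.

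On this probe set fetal ETP was lower than adult ETP by -4.53 ± 0.89 log2 (adjusted p = 0.00529), and adult cells fell by -4.81 ± 0.89 log2 from ETP to DN2 (adjusted p = 0.00451). The fetal fall from ETP to DN3 was -3.36 ± 0.89 log2 (adjusted p = 0.0391), a call that 11 of the 18 fits without 1 array lost. Fetal cells stood lower by -2.63 ± 0.89 log2 in DN2 (adjusted p = 0.142) and by -3.09 ± 0.89 log2 in DN3 (adjusted p = 0.105). With the replicate number as a block the DN3 difference was called (adjusted p = 0.0441). Without the first adult DN2 array, the low one, the DN2 difference was -3.67 ± 0.79 log2 (adjusted p = 0.0212) and the DN3 difference of -3.09 log2 was called (adjusted p = 0.0322). Over the fits without 1 array the difference ranged from -3.67 to -1.78 log2 in DN2 and from -4.11 to -2.36 log2 in DN3, where it was called without the first adult DN3 array (adjusted p = 0.0141). It was -2.79 ± 1.02 log2 without the third adult DN3 array (adjusted p = 0.277) and -1.04 ± 1.03 log2 with only the first (adjusted p = 0.831). The adult difference between DN3 and ETP on 1416714_at was -5.10 ± 1.02 log2 without the third adult DN3 array (adjusted p = 0.00562) and -6.85 ± 1.03 log2 with only the first (adjusted p = 0.001). The 2 probe sets correlated at r = 0.823 over the 18 arrays and disagreed outside adult ETP, where 1448452_at was flat.

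*Cebpb*, the C/EBP gene that moved with stage, was lower in DN3 than in ETP at both ages. On 1418901_at adult ETP stood at 0.91, 0.47 and 1.11 log2, adult DN2 at -0.48, 1.31 and -0.09 log2 and adult DN3 at -2.05, -1.95 and -0.57 log2. Fetal ETP stood at 0.92, 0.58 and 1.25 log2, fetal DN2 at -0.34, 0.36 and 0.09 log2 and fetal DN3 at -1.66, -0.88 and -1.46 log2. ETP and DN2 overlapped in adult but not in fetal cells, and DN3 was the lowest group at both ages. The adult difference between DN3 and ETP was -2.36 ± 0.46 log2 (adjusted p = 0.00384). The fetal one was -2.25 ± 0.46 log2 (adjusted p = 0.00806). Without the third adult DN3 array the adult difference was -2.83 ± 0.44 log2 (adjusted p = 0.000997), and with only the first -2.88 ± 0.58 log2 (adjusted p = 0.00773). The ages differed in this fall by 0.11 log2, within ± 1.41 log2 (95% interval). By group means 24.9% of the adult and 39.0% of the fetal difference was reached at DN2. The steps from ETP to DN2 were not called (-0.59 ± 0.46 log2 for adult and -0.88 ± 0.46 log2 for fetal cells). No test compared them with the steps from DN2 to DN3.

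The step from DN2 to DN3 was not called for *Cebpb* in adult (-1.77 ± 0.46 log2, adjusted p = 0.0921) or fetal cells (-1.37 ± 0.46 log2, adjusted p = 0.211). Without the third adult DN3 array the adult step was -2.25 ± 0.44 log2 (adjusted p = 0.0160), and without the first adult DN2 array -2.13 ± 0.49 log2 (adjusted p = 0.0463). With only the first adult DN3 array it was -2.30 ± 0.58 log2 and not called (adjusted p = 0.0503). Fetal and adult cells differed by 0.08, -0.21 and 0.19 log2 in ETP, DN2 and DN3, each within ± 1.00 log2 (95% interval). The second probe set, 1427844_a_at, stayed between -0.25 and 0.10 log2 and gave no call, so that the fall of *Cebpb* rests on 1 probe set.

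*Cebpg* was called lower in fetal cells on 1 of its 3 probe sets, in DN2. On 1425262_at adult DN2 stood at 0.47, -0.07 and 1.08 log2 and fetal DN2 at -0.52, -0.80 and -0.41 log2, a difference of -1.08 ± 0.27 log2 (adjusted p = 0.0395). Adult ETP stood at 0.38, 0.81 and 0.26 log2 and fetal ETP at -0.62, -0.69 and 0.15 log2 (-0.87 ± 0.27 log2, adjusted p = 0.0545, and 0.0452 with the replicate block). In DN3 the adult arrays stood at 0.10, 0.07 and 0.18 log2 and the fetal arrays at -0.36, -0.54 and -0.47 log2. Fetal DN3 thus stood -0.57 ± 0.27 log2 from adult DN3, short of a call (adjusted p = 0.497). In all 3 stages the adult and fetal arrays did not overlap. How many of all probe sets separate in this way was not counted, so the separation alone is not read as an age difference. The call in DN2 was lost in 12 of the 18 fits without 1 array. The fetal minus adult differences of 1425261_at were -0.06, -0.75 and -0.68 log2 and those of 1451639_at -0.33, -0.80 and -0.46 log2 in ETP, DN2 and DN3. Neither was called in any comparison, and the 3 probe sets correlated at r = -0.0525 to 0.531.

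*Cebpd* was high in 1 array alone. On 1423233_at the third adult ETP array stood at 4.80 log2, the other 2 adult ETP arrays at 0.17 and -0.05 log2 and the remaining arrays between -0.14 and 0.10 log2. No comparison was called, and 1456605_at stayed between -0.10 and 0.04 log2. In the same array *Tlr4*, which encodes the endotoxin receptor, stood at 3.63 log2, 3.28 log2 above the next highest array, *Ifngr2*, a chain of the interferon gamma receptor, at 4.61 log2, 4.56 above the next, and *S100a8*, a granulocyte and monocyte protein gene, at 3.01 log2, 2.94 above the next. *Ms4a3*, a gene of granulocyte and monocyte progenitors, stood 5.93 log2 above the next highest array. Other granulocyte markers did not stand out in this array. *S100a9*, *Camp*, *Ngp* and *Ltf* stood at -0.06, -0.06, -0.06 and -0.04 log2, and *Mpo* and *Elane*, at 5.62 and 2.52 log2, stood below the first adult ETP array. In all, 20 probe sets stood at least 2 log2 above every other array there, where the other arrays had 0 to 39 such probe sets. The part of this array in other results was not tested beyond leaving it out, which left the *Irf8* difference in ETP at -3.52 ± 0.09 log2 on 1448452_at (adjusted p = 1.37e-10).

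*Cebpa* and *Irf4* stayed flat. *Cebpa* 1418982_at stood between -0.07 and 0.04 log2 in all arrays, and the *Irf4* probe sets 1421173_at and 1421174_at between -0.10 and 0.06 log2. No comparison was called for them. *Irf4* 1421174_at followed the median of each array over all probe sets (r = 0.996 over the 18 arrays). Centred values do not tell a gene that is off in every array from one that is equally on in all, so that the level of these transcripts is unknown here.

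**Figure D3:**
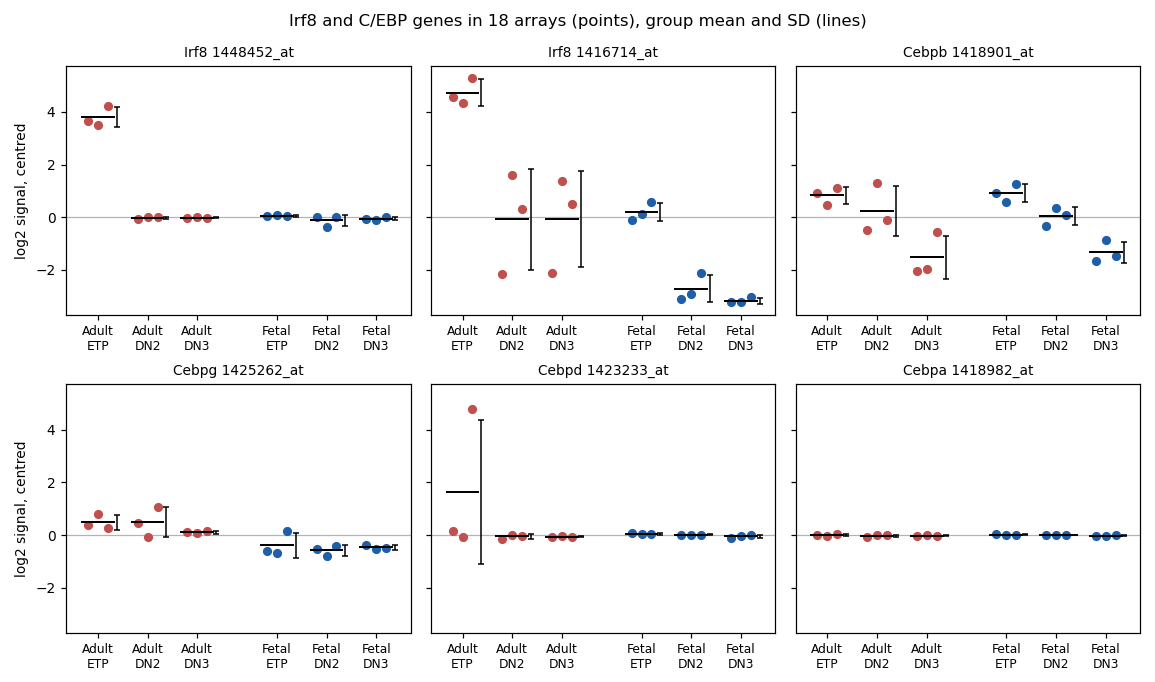
Log2 signal of 6 *Irf8* and C/EBP probe sets, centred on the median over 18 arrays, by group; points are arrays in the order of their replicate numbers (red adult, blue fetal), horizontal lines are group means and bars the SD of 3 arrays. *Irf8* stands apart in adult ETP, *Cebpb* declines to DN3 at both ages, *Cebpd* is high in 1 adult ETP array and *Cebpa* is flat.

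Counted by comparison, 7 of the 17 probe sets (2 of the 7 genes) were called lower in adult DN2 than in adult ETP, where 3.11% of all probe sets were. From adult ETP to adult DN3 it was 8 probe sets of 3 genes (background 5.2%), and from adult DN2 to adult DN3 none by limma (background 0.292%), although 3 had an unadjusted p under 0.05. That background counts adjusted calls, and no share of all probe sets is given for the unadjusted count. In fetal cells 5 probe sets of 1 gene fell from ETP to DN2 (background 0.557%), 1 from DN2 to DN3 (background 0.84%) and 7 of 3 genes from ETP to DN3 (background 2.76%). Fetal cells were lower than adult cells on 3 probe sets of 2 genes in ETP (background 3.45%), 2 of 2 genes in DN2 (background 1.57%) and 1 in DN3 (background 1.16%). The share of members called between ETP and DN3 was above that of all probe sets. This excess is no independent result, since the members were chosen with earlier results of these data known. At both ages these calls include all 5 probe sets of *Mef2c*, which are no replicates of each other. The few calls between the ages in DN2 and DN3 were single probe sets. Comparisons with the same group as reference share its arrays.

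**Figure D4:**
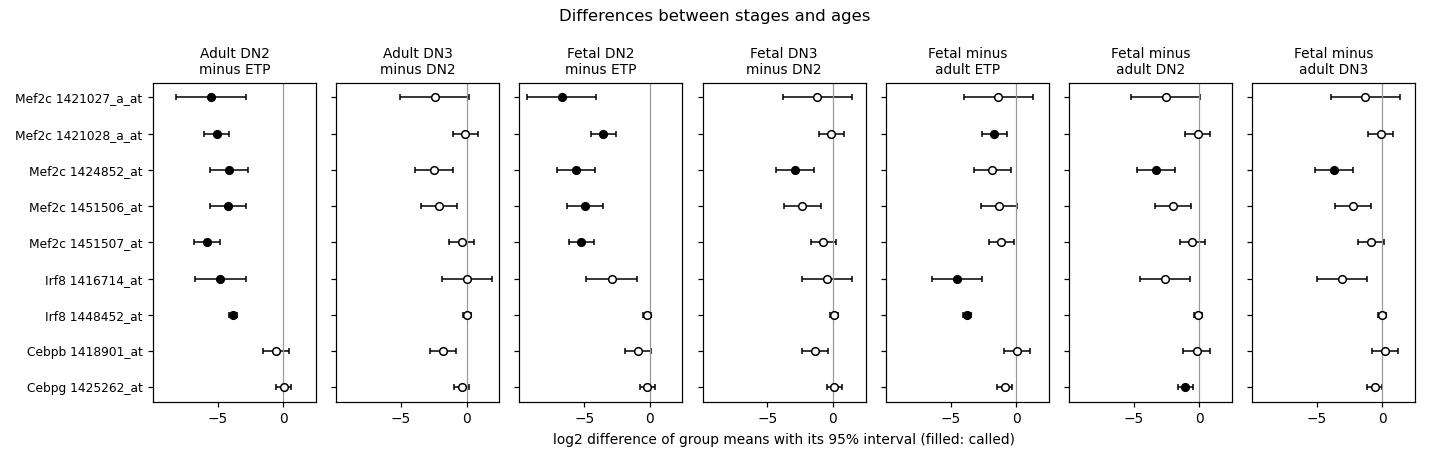
Difference of group means (log2) with its 95% interval from limma for 9 probe sets of *Mef2c*, *Irf8*, *Cebpb* and *Cebpg*; each panel is 1 comparison, the later stage minus the earlier or fetal minus adult, and filled points were called. The *Mef2c* differences from ETP to DN2 lie below 0 at both ages, and both *Irf8* probe sets were called lower in fetal than in adult ETP.

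Close relatives of the members gave differences of under 2 log2 where they were called. Of the IRF family 6 of 7 other genes were measured. *Irf5*, an activator of inflammatory genes in myeloid cells, was lower in DN3 than in ETP, with differences of -1.77 log2 for adult (adjusted p = 0.000305) and -1.49 log2 for fetal thymus (adjusted p = 0.0018). *Irf7*, the main inducer of type I interferon, and *Irf9*, which acts in interferon signalling, were lower in fetal ETP by -1.09 ± 0.28 and -1.20 ± 0.31 log2. *Irf7* also fell in adult cells by -1.03 log2, and *Irf1* and *Irf9* were lower in fetal DN2 by -0.92 and -1.57 log2. In *Mef2d* fetal cells were lower in ETP (-1.39 log2, adjusted p = 0.00385) and DN2 (-1.05 log2), and the gene rose from fetal DN2 to fetal DN3 (1.08 log2). *Mef2a* fell in adult cells by -1.81 log2 to DN2 and rose by 1.90 log2 to DN3, a rise not called with only the first adult DN3 array (2.24 log2, adjusted p = 0.067). Its fetal differences were -1.33 and 1.31 log2 and were not called. *Ddit3*, the only 1 of 3 other C/EBP genes listed that was matched to a probe set of its own, was not called in any of the comparisons.

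Among the regulators listed beside the members was *Id2*, an inhibitor of E proteins needed for innate lymphoid and dendritic cells. *Id2* was higher in fetal cells at all stages, by 1.84, 2.64 and 2.56 log2 in ETP, DN2 and DN3. In adult cells *Id2* fell from ETP to DN2 by -1.63 log2. *Gfi1*, a repressor that antagonises myeloid genes, was higher in DN3 than in ETP (1.71 log2 for adult, 1.66 log2 for fetal thymus). *Trib1* and *Trib2*, whose products can promote breakdown of C/EBPα, and their relative *Trib3* were not called. *Hdac5*, a class IIa deacetylase that binds MEF2 proteins, fell from ETP to DN3 by -2.29 and -2.59 log2, and *Hdac7* rose in fetal cells by 2.25 log2. Of the 13 partner genes of IRF4 and IRF8, *Spi1*, which encodes PU.1, was lower in DN3, with differences of -4.46 log2 for adult (adjusted p = 0.00781) and -4.17 log2 for fetal thymus (adjusted p = 0.019). *Spib*, its relative, rose by 6.01 and 8.58 log2, *Ets1* by 4.56 and 4.43 log2, and *Etv6* fell in adult cells by -2.25 log2. *Batf*, *Batf2* and *Batf3*, partners of IRF4 and IRF8 in dendritic cells and lymphocytes, were not called between the ages or from ETP to DN3.

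Of 12 receptors upstream of the members, 3 fell and 1 rose from ETP to DN3 in adult and 2 fell and 1 rose in fetal cells, where 6.09% and 3.13% of all genes fell and 6.8% and 3.25% rose. *Csf1r*, the macrophage colony stimulating factor receptor, stood at 9.46 to 9.70 log2 in adult ETP, at 7.39 to 8.90 log2 in fetal ETP and between -0.05 and 1.08 log2 in all other arrays. *Flt3*, the receptor that supports dendritic cell progenitors, stood at 6.75 to 8.27 log2 in adult ETP and at 3.27 to 3.71 log2 in fetal ETP. Both were lower in fetal than in adult ETP, by -1.63 log2 (adjusted p = 0.00814) and -3.84 log2 (adjusted p = 0.000694). *Il6st* and *Tlr2* were lower there too, so that 4 of the 12 were called in ETP, where 4.06% of all genes were lower and 6.16% higher in fetal cells.

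Genes known as targets of the members are listed beside them here without a claim that the members acted on them. Of 17 granulocyte and monocyte genes that C/EBP factors bind, 6 fell from ETP to DN3 in adult and 3 in fetal cells, and 4 were lower in fetal than in adult ETP. For this list and the next, the shares over all genes were 6.09% and 3.13% for these falls and 4.06% lower in fetal ETP. *Mpo*, which encodes myeloperoxidase, fell by -9.27 and -10.01 log2 and *Prtn3*, a granule protease gene, by -6.88 and -6.37 log2, whereas *Ctsg*, another granule protease gene, was lower in fetal ETP by -7.13 log2. Of 15 dendritic cell and macrophage genes linked to IRF8 and IRF4, 8 fell in the adult and 3 in the fetal thymus, while 5 stood lower in fetal ETP (*Mpeg1* by -7.03, *Cd74* by -5.03, *Flt3* by -3.84, *Ctss* by -3.58 and *Naaa* by -2.43 log2). The lists share genes, so their counts are not independent. *Flt3* is also among the receptors above and *Cd74* among the dendritic cell markers below. *Mpeg1*, a pore protein gene of macrophages, and *Cd74*, the invariant chain of class II molecules, stood at 6.06 to 7.70 and 4.07 to 7.08 log2 in adult ETP, while the highest other array was adult DN2 at 2.24 log2 for *Mpeg1* and fetal ETP at 0.36 log2 for *Cd74*. The median difference between fetal and adult ETP over the 15 genes was 0.06 log2 against 0.07 log2 over all genes.

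Of 12 progenitor and lymphoid genes linked to MEF2C, 6 fell and 2 rose from ETP to DN3 in adult and 5 fell and 2 rose in fetal cells. Over all genes 6.09% fell and 6.8% rose in adult cells, and 3.13% fell and 3.25% rose in fetal cells. *Lmo2*, a partner of progenitor transcription factors, stood at 8.61, 8.09 and 8.52 log2 in adult ETP and at 4.58, 4.75 and 5.53 log2 in fetal ETP, a difference of -3.45 log2 (adjusted p = 8.83e-07), and within -0.28 to 0.57 log2 in all later arrays. *Meis1*, a partner of HOX factors, fell in adult cells by -6.85 log2 and in fetal cells by -1.39 log2. *Rag1* and *Il7r*, needed for lymphocyte development, rose at both ages. The T lineage factors ran the other way, with 7 of 9 higher in adult DN3 and 4 of 9 in fetal DN3 than in ETP, such as *Bcl11b*, which secures T cell commitment, by 8.07 and 3.77 log2.

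Some calls of listed genes were lost with fewer adult DN3 arrays. Without the third array the falls of *Elane* and *Hp* from adult ETP to DN3 lost their calls (adjusted p = 0.0914 and 0.0784), which left 4 C/EBP targets lower. With only the first adult DN3 array those of *Spi1* (-4.51 log2, adjusted p = 0.101), *Irf7* (adjusted p = 0.105) and *Tlr2* (adjusted p = 0.0851) and the rises of *Gfi1* (1.49 log2, adjusted p = 0.0829) and *Gata3* (adjusted p = 0.168) were lost too, as was the higher *Spib* of fetal DN3 (2.65 log2, adjusted p = 0.113). The counts for the target genes of IRF8 and IRF4 and for the genes linked to MEF2C from adult ETP to DN3 were the same under both.

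Markers of other cell types moved with some of these results. The mean of 7 dendritic cell markers stood at 2.89 to 3.72 log2 in adult ETP, at 0.48 to 0.55 log2 in fetal ETP and at -0.12 to 0.47 log2 in all other arrays. Of these, *H2-Eb1*, *H2-Aa* and *Cd74* were lower in fetal ETP, and *H2-Eb1*, a class II gene, stood at 6.23, 7.37 and 5.71 log2 in adult ETP and between -0.10 and 0.23 log2 elsewhere. *H2-Ab1*, another class II gene, was not called between the ages in ETP. It stood at 0.19, 3.52 and -0.03 log2 in the adult ETP arrays. *Itgax*, which encodes CD11c, stood high in ETP of both ages (1.64 to 3.06 log2 in adult and 2.85 to 3.61 log2 in fetal cells), and *Xcr1* and *Cd209a* stayed between -0.08 and 0.06 log2. The part of dendritic cells in the *Irf8* difference was not tested.

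The mean of 5 T lineage markers also differed between the ages, at -7.15 to -5.15 log2 in adult and -3.82 to -2.07 log2 in fetal ETP, and *Cd3g* and *Thy1* were called higher in fetal ETP (7.37 and 2.95 log2). Its part in the differences of *Irf8* and *Mef2c* between the ages was not tested. The mean of 8 macrophage markers stood at 1.22 to 1.28 log2 in adult and 1.03 to 1.18 log2 in fetal ETP, where *Csf1r* was the only marker called, and *Itgam*, which encodes the depleted CD11b, stayed between -0.10 and 0.07 log2 in all arrays. The mean of 7 granulocyte markers stood at 0.64 to 1.56 and 0.55 to 0.60 log2, and that of 5 natural killer markers at 1.18 to 1.40 and 1.04 to 1.64 log2. No B lineage or erythroid marker was called in ETP between the ages or from ETP to DN3. The means of the macrophage, granulocyte and natural killer markers were higher in every ETP array than in every later array. They rested largely on single genes, the macrophage mean on *Csf1r* and the natural killer mean on *Klrd1* (5.27 to 7.63 log2 in ETP). In fetal ETP the granulocyte mean rested on *Mpo* (3.64 to 4.15 log2). The median differences from adult ETP to adult DN2 were 0.008, -0.003 and 0.003 log2 for macrophage, granulocyte and natural killer markers. The part of these markers in the fall of *Mef2c* and *Irf8* was not tested.

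**Figure D5:**
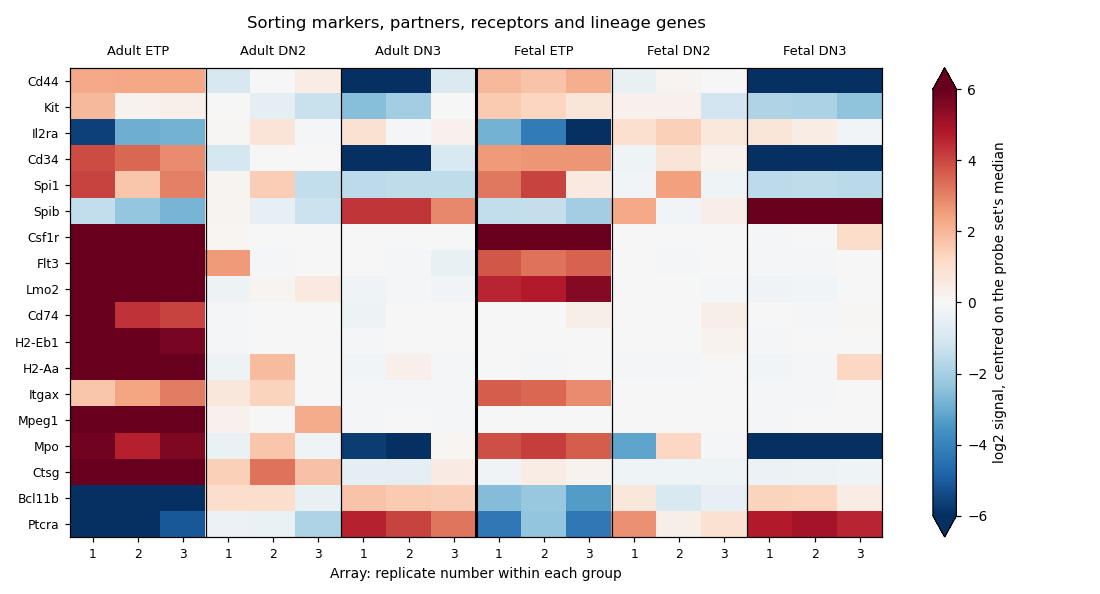
Log2 signal, centred on the median of each probe set, of 18 genes (rows: sorting markers, partners, receptors and lineage genes) in the 18 arrays (columns, by replicate number within each group); colours saturate at 6 and -6 log2. *Cd74*, *H2-Eb1*, *H2-Aa* and *Mpeg1* are high in adult ETP, *Csf1r* and *Flt3* in ETP of both ages, and the third adult DN3 array keeps *Cd44* and *Cd34* near the DN2 arrays.

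Genes whose pattern was most like that of a member over the 18 arrays are given as a description, with Pearson's r, since the arrays share stage and age. For *Mef2c* (1421027_a_at) these were *Car2* (0.976), *Ctdspl* (0.959), *Slco3a1* (0.938), *Pla2g15* (0.934) and *Calhm2* (0.933), and the most opposed were *Cd3e* (-0.954) and *Ptcra* (-0.929), genes of the pre-T cell receptor complex. For *Irf8* (1416714_at) they were *Ripor2* (0.943), *Tsc1* (0.935), the class II chaperone gene *H2-DMa* (0.933), *Osbpl1a* (0.930) and the interferon induced *Oasl2* (0.920), with *Rag2* (-0.936) and *Khdc1a* (-0.892) most opposed. For *Cebpb* they were *Selenbp1* (0.945), *Tspan4* (0.943), *Rbpms* (0.939), *Litaf* (0.936) and *Cnn2* (0.933), with *Cmah* (-0.905) and *Tmem50b* (-0.903) most opposed. Of each 5, at most 2 stayed among the 5 with Spearman's rho or with group means.

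The nearest genes of the remaining members say less. Those of *Cebpd* (*Relb*, *Zfp296*, *Ifngr2*, *C77080* and *S100a8*, r = 0.998 to 0.999) share the single high array, with *Bst2* (-0.896) and *Nudc* (-0.879) most opposed. Those of *Irf4* (*Hrh1*, *Tcte2*, *Serpina6*, *Adh4* and *Syt1*, all 0.999) and *Cebpa* (*Opn4*, *Mb*, *Slc15a3*, *Oprk1* and *Sez6l*, 0.977 to 0.987) spanned at most 0.17 log2 over the arrays. For *Cebpg* (1425261_at) they were *Zfp91* (0.825), *Vcp* (0.821), *Dag1* (0.798), *Usp48* (0.798) and *Ipo8* (0.790). Among the members *Irf8* and *Mef2c* correlated at 0.825, *Cebpb* and *Mef2c* at 0.793 and *Cebpb* and *Irf8* at 0.553.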

How the data were processed

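RNA of sorted ETP, DN2 and DN3 cells from adult and fetal thymus was amplified in 2 cycles and hybridised to Affymetrix mouse expression arrays. The authors deposited log2 values made with GCRMA and centred on the median of each probe set over the 18 arrays, so levels of different probe sets cannot be compared. Gene symbols came from the platform annotation (20380 probe sets with 1 gene, 691 with several, 1555 with none). One mean per group was fitted to all 22626 probe sets with limma 3.58.1 in R 4.3.3 (lmFit and eBayes), with Benjamini-Hochberg adjusted p under 0.05 and 1.8-fold as thresholds, and interaction terms for the change of the age difference. The fit was tested on simulated data. A gene outside the members was represented by the probe set with the largest SD, leaving out those ending in _s_at or _x_at where possible. All probe sets of the members were reported. Of each list, the genes named were relatives, inhibitors, partners, and members with large called differences, with the 5 genes most like and the 2 least like each member by Pearson's r. The members and lists were chosen with earlier results of these data known. The replicate numbers paired some groups by the deviations of same-numbered arrays from their group means, with r over 0.1 in 9 of 9 pairs of fetal arrays and 3 of 3 of adult DN2 with DN3, but in 1 of 3 of adult ETP with DN2, 1 of 3 of adult ETP with DN3 and 13 of 27 of adult with fetal. The labels state no shared batch, and the block was run as an alternative. The pooled SD of the groups was 0.260 to 0.498 log2, and the number of arrays limits the precision. Alternatives were the replicate block, array weights, centring of arrays, only the arrays compared, a robust prior, the one-way test of the methods, other fold thresholds, a span filter, each array left out and the mean of a gene's probe sets. Promoters were searched with Python 3.11.15 and figures drawn with matplotlib 3.10.9.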

Additional observations from a re-analysis of the deposited data

Results flagged for a closer look

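The fetal minus adult difference in *Irf8* (probe set 1448452_at) changed between stages by limma's interaction test, by 3.65 ± 0.20 log2 from ETP to DN2 (SE, adjusted p = 3.29e-07) and by 3.71 ± 0.20 log2 from ETP to DN3 (adjusted p = 1.47e-07). The signal was high in the adult ETP arrays alone, and the call was made in each of the 18 fits without 1 array. The second probe set, 1416714_at, was not called in these tests. Outside adult ETP 1448452_at was flat, and centred values cannot tell whether its signal could fall further in fetal cells. The mean of the dendritic cell markers was also highest in the adult ETP arrays, and its part was not tested.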

How the results depend on the processing

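The calls of members from ETP to DN2 and DN3 in adult cells, from ETP to DN3 in fetal cells and over the 6 groups stayed within 1.5 times their number under all alternatives, and no called member changed direction. Without 1 array in turn, the members called lower in fetal cells numbered 2 to 5 in ETP, 1 to 3 in DN2 and 1 to 2 in DN3, and those called from DN2 to DN3 0 to 3 in adult and 0 to 2 in fetal cells. The replicate number as a block gave 2 calls between the ages in DN3 (*Irf8* 1416714_at added). It changed no other call but that of *Cebpg* 1425262_at in ETP. Over all probe sets it moved the calls from adult DN2 to adult DN3 from 210 to 352. Array weights, whose estimate stopped before its tolerance, gave 5 calls between the ages in DN2, 2 in DN3, and 1 in adult and 0 in fetal cells from DN2 to DN3. With only the arrays compared there were 0, 0 and 0 calls between the ages in DN2, in DN3 and from fetal DN2 to DN3, and 1 from fetal ETP to DN2. The one-way test of the methods gave, without adjustment, 6, 4 and 3 calls between the ages in ETP, DN2 and DN3, 3 in each step from DN2 to DN3 and 2 in the interaction tests from ETP to DN2 and to DN3. With adjustment it gave 1 between the ages in DN2 and 0 from fetal DN2 to DN3. Testing only probe sets that span at least 1 log2 gave 5 calls between the ages in ETP, 3 in DN3, and 2 in each step from DN2 to DN3. Leaving out the 2 adult DN3 arrays low in *Xist*, chosen after seeing the data, gave 5 calls between the ages in ETP, 1 in DN2, and 1 in adult and 2 in fetal cells from DN2 to DN3, and the lone adult DN3 array was assumed to vary like the other groups. The causes were not tested, except that the fit on the arrays compared has fewer arrays and the span filter tests fewer probe sets. Shares of all probe sets called are not given beside these member counts, which describe how stable the calls were and not an excess of members. With 3 arrays a group the number of arrays limits the precision.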
